A study of Caenorhabditis elegans with 3 samples.

Results

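Poly-A RNA of the nematode Caenorhabditis elegans was compared between an L1 larva library and a mixed-stage embryo library, each read as native RNA strands on a nanopore device. The members of the comparison were the 8382 genes, of 19194 in the deposited table, that had 20 or more reads over both libraries. Both libraries came from the strain N2, the standard wild type, and carried no allele, transgene or treatment in the labels. The larval sample was whole worms, and the embryo sample was labelled mixed-stage embryo, a label that does not give the ages in the mix. The food, temperature and hours after hatching of the larvae were not given in the sources used here. There was 1 library per stage, so no difference had a replicate check and no p-value is given. A library of N2 young adults is quoted only for its level beside the others.

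The embryo library held 941707 estimated reads and the L1 library 1017061, over 12013 and 13188 genes with reads. A count of 0 allows a true level of up to 3 reads, or 3.19 RPM in the embryo library and 2.95 RPM in the L1 library, where RPM is the count per 1000000 reads. A gene's read share, its reads over the library total, was compared as a ratio with an exact 95% interval for counting error. A gene was called higher or lower in the L1 library where the bound nearest to 1 was at least 2-fold from 1. The folds below are ratios of read shares with this interval in brackets, and a fold against a library with 0 reads is a lower bound set with 3 reads.

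Hatching ends a period in which the embryo divides, lays out its tissues and secretes the first cuticle inside the eggshell. The hatched L1 larva has its full set of embryonic cells, feeds through the pharynx, digests in the intestine and moves under a working nervous system. Few of its cells divide at the start of this stage, and larvae that hatch without food can wait in an arrested state that lives on stored fat. The cuticle is a collagen matrix made by the epidermis and is replaced at each molt.

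Embryo markers were higher in the embryo library, while the L1 library also held adult transcripts, given below. The early embryo markers pos-1 and pie-1 had 679 and 85 reads in the embryo library and 74 and 17 in the L1 library. The late embryo marker hch-1, a protease that opens the eggshell, had 266 embryo reads and 0 L1 reads. The muscle markers myo-3 and unc-54 had 200 and 87 embryo reads and 174 and 152 L1 reads. Neither muscle marker was called. Of the gut markers, ges-1, an esterase, had 5 embryo and 40 L1 reads and was higher. The gut GATA factor gene elt-2 had 45 and 24 and was not called.

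The L1 share was higher for 1120 (13.4%) and lower for 2769 (33.0%) of the measured genes, and 4493 were neither. The median log2 ratio over all measured genes was -1.14. Of the genes called higher 328 had 0 embryo reads, and of those called lower 168 had 0 L1 reads. Such genes reached the minimum of 20 reads through 1 library alone, in every list below. Genes called higher held 56.7% of L1 reads and 13.3% of embryo reads. It took 612 genes to hold 50% of embryo reads and 123 genes to hold 50% of L1 reads. Scaling with edgeR TMM factors moved the median log2 ratio to -0.14, with all ratios shifted alike, and gave 1649 genes (19.7%) higher and 976 (11.6%) lower. A uniform upward shift fixes in advance that all 1120 genes called higher by totals stay higher. It likewise fixes that all 976 called lower with TMM factors were lower by totals. Because the counts differ, a list's direction is given with both scalings where they differ. Its counts stand beside these shares of all measured genes, and its median beside the median of -1.14. In bulk RNA, fewer cells of a type and less RNA per cell cannot be told apart. Members of near-identical families, such as collagens, Skp1-related genes, F-box genes, tubulins, actins, sperm proteins and yolk proteins, are uncertain one by one where reads were divided among near copies.

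**Figure D1:**
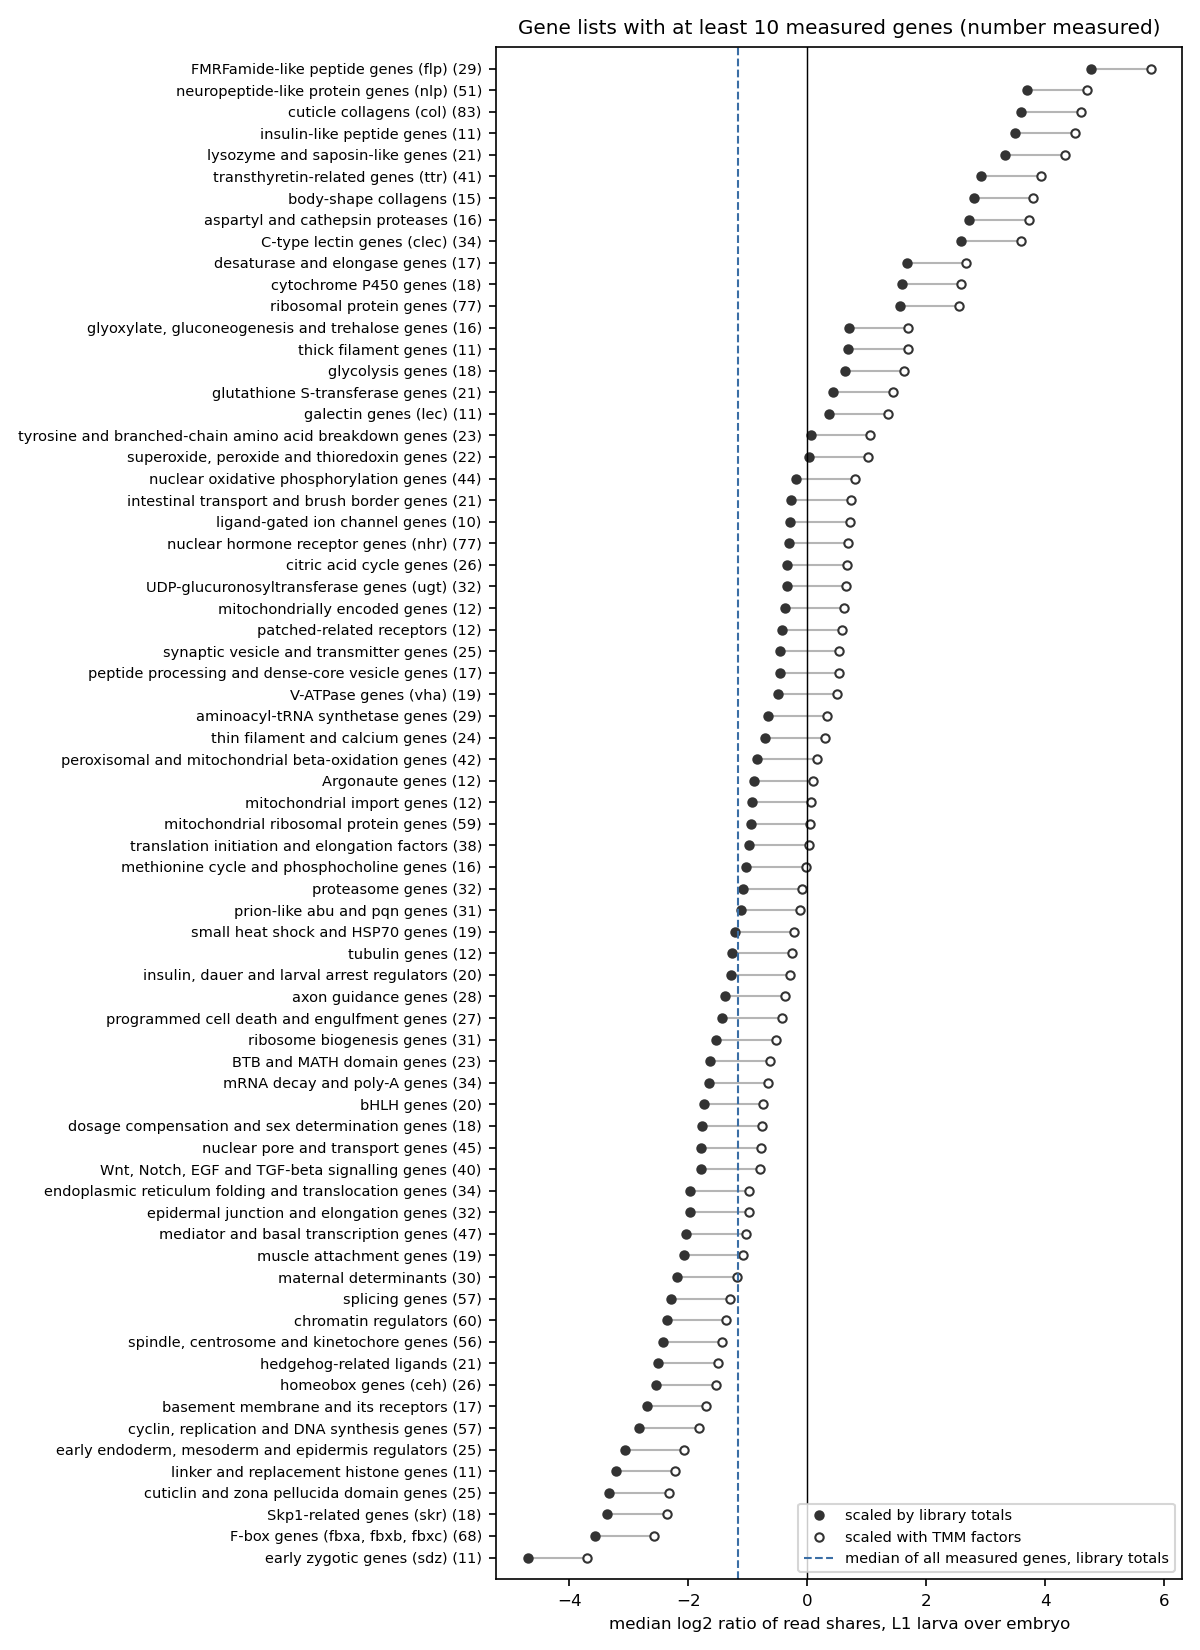
Median log2 ratio of read shares, L1 larva over embryo, for gene lists with at least 10 measured genes, with the number measured in brackets. Filled points use library totals and open points TMM factors, libraries with 0 reads are set to 3 reads, and the dashed line is the median of all measured genes by totals (-1.16 on this scale). Peptide, collagen and digestive lists lie at the top, and nuclear, cuticlin and F-box lists at the bottom.

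Adult transcripts were present in the L1 library, and their levels matter for several lists below. Major sperm protein genes, which mark the germline, had 3 embryo, 609 L1 and 11720 young adult reads, so their L1 share was 8.23% of their young adult share. For yolk protein genes, made by the adult gut, the L1 share was 9.31% of the young adult share, with 524 L1 and 8918 young adult reads. These yolk genes were uneven, with vit-2 at 270 L1 reads, vit-6 at 197, vit-5 at 56, vit-4 at 1 and vit-3 and vit-1 at 0. For the eggshell genes perm-2 and perm-4 the L1 share was 19.3% and 16.3% of the young adult share. Of the 1120 genes called higher 241 had a larger young adult than L1 share. Taking 8.23% of each gene's young adult share from its L1 reads left 1052 genes higher, 1029 of them among the 1120. That alternative was added after the data were seen, and the source of these reads was not tested. The fraction was below those of perm-2 and perm-4 and above that of vit-4, at 0.0994%. Below, without the adult share means less this fraction only, so part of an adult level can remain.

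Cuticle collagens differed in both directions. Of 83 measured col genes, which encode the structural proteins of the cuticle, the L1 share was higher for 62 and lower for 5 (63 and 3 with TMM factors), and 42 of the 62 had 0 embryo reads. Those 42 reached the minimum of 20 reads only because of the L1 library. The median log2 ratio was 6.0, or 3.60 with 0 reads taken as 3. The joint share of the col genes was 0.327% in the embryo, 1.05% in the L1 and 6.53% in the young adult library.

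The col genes higher in the L1 library fell into 2 sets by their young adult level. In 33 of the 62 the young adult share was larger than the L1 share, and in 29 it was smaller. The adult-rich genes included col-160 with 1 embryo, 580 L1 and 5647 young adult reads and col-119 with 0, 324 and 5386. Taking the adult share away left 40 of the 62 higher, so the count for this list rests in part on transcripts abundant in the adult library. The other set included 13 genes with 0 young adult reads. Among these col-36 had 0 embryo and 312 L1 reads, at least 96.3-fold higher, and col-37 had 0 and 259, at least 79.9-fold higher. The gene col-2, a collagen known from dauer larvae, had 0 embryo, 167 L1 and 0 young adult reads. The col genes of the embryo library were few and abundant there. Of these, col-165 had 687 embryo and 16 L1 reads, 46.4-fold lower (28.4 to 81.6), col-74 had 665 and 14, 51.3-fold lower (30.4 to 94.4), and col-121 had 326 and 1. All 3 had 0 young adult reads.

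**Figure D2:**
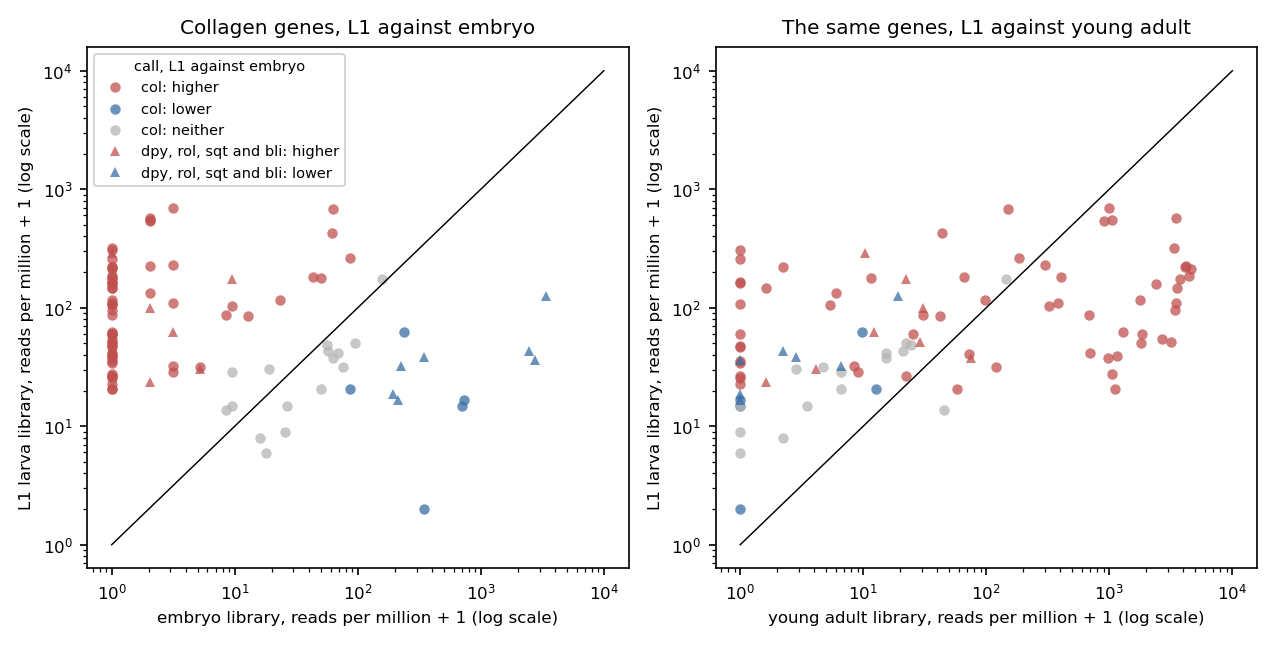
RPM with 1 added, of each measured collagen gene in the L1 larva library against the embryo library (left) and against the young adult library (right), on log axes, with the line of equal share. Circles are col genes, triangles are collagens named for body shape, and colours give the call of L1 against embryo. In the right panel the col genes called higher form a set to the right of the line, with larger adult shares, and a set at the left, with few or no adult reads.

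Collagens named for the body shape of their mutants divided evenly, with 8 of 15 higher and 7 lower under both scalings. Of the 8 higher, 3 had 0 embryo reads and were measured through the L1 library alone. The higher members were rol-8 with 0 embryo and 292 L1 reads, at least 90.1-fold higher, dpy-13 with 1 and 100, 92.6-fold higher (16.2 to 3693), dpy-5, dpy-4, dpy-8, dpy-9, sqt-2 and bli-6. All 8 were also higher without the adult share. The lower members included sqt-3, with 3191 embryo and 126 L1 reads, 27.4-fold lower (22.9 to 32.9), and dpy-2, with 326 and 38, 9.27-fold lower (6.61 to 13.3). The others were dpy-3, dpy-7, dpy-10, dpy-14 and dpy-17, so no member lay between the calls. In worms dpy-2, dpy-3, dpy-7, dpy-8, dpy-9 and dpy-10 are known to build the furrows of the cuticle, and here 2 of these 6, dpy-8 and dpy-9, were in the higher set.

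Cuticlins and zona pellucida domain proteins, which form the apical matrix and the cuticle ridges of the embryo, were lower. Of 25 measured, 21 were lower and 0 higher (18 and 0 with TMM factors), and their joint share was 17.7-fold lower (16 to 19.7). The cuticlin gene cut-3 had 640 embryo, 9 L1 and 0 young adult reads, 76.8-fold lower (40.2 to 169). The lipocalins lpr-3, lpr-4 and lpr-6, apical matrix proteins of narrow tubes, had 379, 314 and 367 embryo reads and 36, 48 and 43 L1 reads. All 6 measured lpr genes were lower, 4 of them with TMM factors.

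Hedgehog-related ligands are secreted proteins, many of them epidermal. Of 21 measured, 12 were lower and 4 higher (7 and 5 with TMM factors). All 5 wrt genes were lower by totals and 3 with TMM factors, with wrt-1 at 307 embryo and 19 L1 reads, 17.5-fold lower (11 to 29.4). Of 5 grd genes none was lower and 2 were higher (3 with TMM factors). By totals these were grd-3 with 0 and 159 reads and grd-10 with 4 and 106, 24.5-fold higher (9.31 to 91.7). Of 9 grl genes 5 were lower and 2 higher (4 and 2 with TMM factors). The genes higher in the L1 library, grd-3 and grd-10, also had 312 and 123 young adult reads, whereas grl-20 had 0 embryo, 80 L1 and 0 young adult reads. Of 12 patched-related receptor genes 4 were lower and 1 higher (2 and 1 with TMM factors). Among the receptors ptr-4 was 6.43-fold lower (4.12 to 10.5) and ptr-8 was at least 12.3-fold higher.

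Genes that hold epithelia together and drive elongation of the embryo were lower by totals, less so with TMM factors. Of 32 measured, 22 were lower and 0 higher (5 and 1 with TMM factors). The cadherin gene hmr-1 had 153 embryo and 13 L1 reads, 12.7-fold lower (7.22 to 24.4), and ifa-3, an intermediate filament gene of the epidermal attachments, had 155 and 1. Basement membrane genes had 13 of 17 lower and 0 higher (9 and 0 with TMM factors). The type IV collagen gene let-2 had 307 embryo and 51 L1 reads, 6.50-fold lower (4.82 to 8.93), and its partner emb-9 had 260 and 91, 3.09-fold lower (2.42 to 3.96), a call lost with TMM factors. The laminin gene lam-3 was 15.6-fold lower (7.29 to 39.7) and nid-1, which encodes nidogen, 20.9-fold lower (9.31 to 58.1). The caveolin gene cav-1 (chromosome IV, 9772510 to 9773559, plus strand, WBcel235) had 2719 embryo and 37 L1 reads and was 79.4-fold lower (57.4 to 113). The innexin gene inx-2, which encodes a gap junction subunit, had 588 and 4 reads, 159-fold lower (61.7 to 585).

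Neuropeptide genes were mostly higher in the L1 library. Of 29 measured flp genes, which encode FMRFamide-like peptides, 28 were higher and 0 lower (29 and 0 with TMM factors), and their joint share was 28.5-fold higher (24.8 to 32.8). All 28 had a larger share in the L1 than in the young adult library, and all 28 were also higher without the adult share. The peptide genes flp-14 and flp-12 had 3 and 4 embryo reads and 605 and 439 L1 reads, 187-fold (63.6 to 908) and 102-fold (39.4 to 375) higher. Of 51 nlp genes 39 were higher and 1 lower (44 and 1 with TMM factors). The gene nlp-17 had 7 embryo and 599 L1 reads, and nlp-40, a gut peptide of the defecation rhythm, had 36 and 599, 15.4-fold higher (11 to 22.2). The exceptions were nlp-50, with 31 embryo and 2 L1 reads, and the abundant nlp-77, with 775 and 471, whose fold of 1.78 lower (1.58 to 2.0) was not called.

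Insulin-like peptide genes went both ways and were read rarely. Of 11 measured of 36 in the table, 7 were higher and 3 lower under both scalings. The higher genes were ins-17, ins-18, ins-24, ins-27, ins-31, ins-33 and ins-35, with at most 5 embryo reads each and 33 to 91 L1 reads. Of these ins-18, known as an antagonist of the insulin receptor, had 3 embryo and 56 L1 reads, 17.3-fold higher (5.62 to 86.3). The lower genes were ins-2 with 33 and 0 reads, ins-13 with 27 and 0, and ins-34 with 51 and 1. The receptor gene daf-2 had 11 reads in each library.

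Some genes of the machinery that makes peptides were higher. Among them were sbt-1, the chaperone of the peptide convertase, at 40 embryo and 1131 L1 reads, 26.2-fold higher (19.1 to 36.8), and pghm-1, an amidating enzyme, at 14 and 617, 40.8-fold higher (24.1 to 75.1). Peptide processing and dense-core vesicle genes, 17 measured, had 6 higher and 2 lower (6 and 0 with TMM factors), and the median of -0.45 became 0.55 with TMM factors. The 2 lower genes by totals were hid-1, a vesicle sorting gene, and kpc-1, another convertase, with 77 and 123 embryo and 20 and 36 L1 reads. Synaptic vesicle and transmitter genes had 2 of 25 higher and 6 lower by totals, and 6 higher and 2 lower with TMM factors, with the same medians of -0.45 and 0.55. The synaptobrevin gene snb-1 had 438 and 338 reads, 1.4-fold lower (1.21 to 1.62) and not called. The complexin gene cpx-1 had 1 and 38 reads, and the G protein gene goa-1 had 294 and 50, 6.35-fold lower (4.69 to 8.75).

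Of 28 axon guidance genes, which wire the nervous system, 9 were lower and 1 higher (4 and 1 with TMM factors), a lower share close to the 33.0% of all measured genes. The semaphorin gene mab-20 had 246 embryo and 13 L1 reads, 20.4-fold lower (11.7 to 38.9), and the netrin gene unc-6 had 32 and 1. The higher gene was zig-3, a maintenance factor of the nerve cord, with 7 and 59 reads, 7.80-fold higher (3.56 to 20.3). Of 10 measured ligand-gated channel genes 2 were higher and 2 lower under both scalings. The glutamate-gated chloride channel gene glc-1 had 6 and 190 reads, 29.3-fold higher (13.2 to 80.9), whereas lgc-22 had 127 and 13. Of 8 touch receptor genes 1 was higher and 2 lower (2 and 0 with TMM factors). The higher gene mec-17, a tubulin acetyltransferase, was 4.50-fold higher (2.79 to 7.58). Of chemoreceptor genes only 4 of the sr and str families passed the read minimum, and str-176 was the called member, with 0 embryo and 71 L1 reads. Of 7 cilium genes 2 were lower by totals and 0 with TMM factors, including daf-19, the regulator of cilium genes, with 47 and 7 reads.

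Muscle genes were called in both directions. Of 11 thick filament genes 3 were higher and 1 lower (7 and 0 with TMM factors). The myosin light chain genes mlc-2 and mlc-3 had 440 and 542 embryo reads and 2820 and 1813 L1 reads, 5.93-fold (5.37 to 6.58) and 3.10-fold (2.81 to 3.42) higher. Thin filament and calcium genes had 5 of 24 higher and 7 lower (7 and 1 with TMM factors), and the median of -0.70 became 0.31. In 3 of the 5 the young adult share was larger than the L1 share. The troponin gene tnt-2 had 16 and 256 reads, 14.8-fold higher (8.95 to 26.3), and the calponin-like unc-87 had 112 and 663, 5.48-fold higher (4.48 to 6.76). The tropomyosin gene lev-11 had 749 and 795 reads, 1.02-fold lower (0.920 to 1.13). The actin gene act-2 was 6.93-fold lower (6.19 to 7.78). Attachment genes had 11 of 19 lower and 0 higher (3 and 0 with TMM factors). The kindlin gene unc-112, the parvin gene pat-6 and the PINCH gene unc-97, which link integrins to the filaments, were 4.46-fold, 4.58-fold and 4.59-fold lower by totals, and none of the 3 was called with TMM factors.

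Genes of digestion and defence in the gut were mostly higher. Of 16 aspartyl and cathepsin proteases 14 were higher and 0 lower (15 and 0 with TMM factors). In 6 of the 14 the young adult share was larger than the L1 share. The cathepsin gene cpr-1 had 5 embryo and 811 L1 reads, 150-fold higher (64.1 to 464), and asp-14 had 1 and 294. The exception by level was cpl-1, a cathepsin with roles in yolk processing and molting, with 433 and 513 reads, 1.1-fold higher (0.963 to 1.25) and not called. Of 21 lysozyme and saposin-like genes, which encode antimicrobial proteins, 16 were higher and 1 lower (18 and 0 with TMM factors), and 14 of the 16 also without the adult share. Of the 16, 4 had 0 embryo reads and were measured through the L1 library alone. The lysozyme gene lys-7 (chromosome V, 3481432 to 3482600, minus strand) had 0 and 361 reads, at least 111-fold higher. The saposin-like genes spp-14 and spp-5 had 32 and 143 embryo reads and 1717 and 1548 L1 reads, the former 49.7-fold higher (35.1 to 72.9) and the latter 8.44-fold to 12-fold higher (bounds of the interval). The invertebrate lysozyme gene ilys-5 had 0 embryo, 67 L1 and 3075 young adult reads and was not measured without the adult share, whereas ilys-3 had 0, 279 and 2.

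Among lectin and transthyretin-related genes more were higher than lower, and gut transport genes were called in both directions by totals. Of 34 measured clec genes, which encode C-type lectins, 21 were higher and 6 lower (24 and 5 with TMM factors), while their joint share was 1.41-fold lower (1.35 to 1.47). Of the 21, 7 had 0 embryo reads and were measured through the L1 library alone. The lectin gene clec-87, lower in the L1 library, had 1912 embryo, 141 L1 and 2010 young adult reads, and clec-63 had 34, 780 and 863. Of 41 ttr genes, transthyretin-related secreted proteins, 28 were higher and 1 lower (32 and 1 with TMM factors), or 22 and 3 relative to genes of like transcript length. Of the 28, 5 had 0 embryo reads. The gene ttr-51 had 6 and 716 reads, 110-fold higher (50.5 to 302). Intestinal transport and brush border genes had 7 of 21 higher and 3 lower (9 and 0 with TMM factors). The metallothionein genes mtl-1 and mtl-2, which bind metals, had 0 and 10 embryo and 650 and 251 L1 reads, at least 201-fold and 23.2-fold (12.4 to 49.1) higher. The brush border genes act-5 and ifb-2, which build the microvilli and the web below them, had 94 and 260 embryo and 27 and 213 L1 reads. Of these 2 genes act-5 was lower by totals alone and ifb-2 was not called. V-ATPase genes, which acidify compartments, were mostly not called, with 0 of 19 higher and 2 lower by totals and none called with TMM factors.

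The aquaporins, channels for water and glycerol, had 3 of 7 higher and 1 lower. The glycerol channel gene aqp-1 had 8 embryo and 447 L1 reads, 51.7-fold higher (26 to 121), and aqp-7 had 52 and 536, 9.54-fold higher (7.17 to 12.9). In contrast aqp-2 had 3124 and 409 reads, 8.25-fold lower (7.44 to 9.17). Among the small lipid carriers lbp-2 had 8 and 703 reads, 81.4-fold higher (41.1 to 189), and lbp-1 had 1236 and 242, 5.52-fold lower (4.80 to 6.36). By totals 2 lbp genes were higher, both with a larger young adult than L1 share.

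Several desaturase and elongase genes were higher, and fasn-1 was lower. Of 17 desaturase, elongase and synthesis genes 9 were higher and 2 lower (11 and 1 with TMM factors). The desaturase genes fat-3, fat-4 and fat-6, which build polyunsaturated and oleic acids, had 46, 162 and 37 embryo reads and 941, 819 and 930 L1 reads. Of these fat-3 was 18.9-fold (14.1 to 26.1), fat-4 4.68-fold (3.95 to 5.58) and fat-6 23.3-fold (16.8 to 33.3) higher. The elongase gene elo-5, for branched-chain fatty acids, had 3 and 332 reads. The fatty acid synthase gene fasn-1 had 223 and 39 reads, 6.18-fold lower (4.38 to 8.92). Among beta-oxidation genes, which break fat down, 6 of 42 were higher and 12 lower (7 and 7 with TMM factors). By totals these shares were close to the 13.4% higher and 33.0% lower of all measured genes. The acyl-CoA synthetase gene acs-2, known to rise in starved worms, had 12 embryo, 1312 L1 and 61 young adult reads, 101-fold higher (57.8 to 196), and acs-19 had 136, 793 and 455. The genes cpt-6, a carnitine transferase, and acdh-2, a dehydrogenase, were lower, with 76 and 39 embryo reads and 3 and 0 L1 reads.

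Carbon metabolism held an abundant L1 transcript. The alcohol dehydrogenase gene sodh-1 (chromosome V, 11888248 to 11889650, plus strand) had 28 embryo, 7219 L1 and 151 young adult reads, 239-fold higher (165 to 360). It was listed with the glyoxylate, gluconeogenesis and trehalose genes, of which 3 of 16 were higher and 0 lower by totals, and 10 and 0 with TMM factors. Their joint share was 4.15-fold higher (3.97 to 4.34), and most of these L1 reads were those of sodh-1. The glyoxylate enzyme gene icl-1, which turns fat into sugar precursors, had 910 embryo, 1440 L1 and 200 young adult reads, 1.47-fold higher (1.35 to 1.59), and was called with TMM factors only. Of 18 glycolysis genes 4 were higher and 3 lower (10 and 2 with TMM factors). The glyceraldehyde phosphate dehydrogenase genes divided, with gpd-2 at 298 and 1196 reads, 3.72-fold higher (3.27 to 4.23), and gpd-1 and gpd-4 at 240 and 113 embryo and 46 and 16 L1 reads, 5.63-fold (4.10 to 7.90) and 7.63-fold (4.50 to 13.8) lower. Of 26 citric acid cycle genes 21 were not called by totals.

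Amino acid and small-molecule enzymes showed single large changes. The phosphocholine synthesis gene pmt-1 had 36 and 898 reads, 23.1-fold higher (16.6 to 33.2), while tyms-1 and dhfr-1, enzymes of thymidine and folate metabolism, were 7.08-fold (4.63 to 11.3) and 4.67-fold (3.25 to 6.87) lower, the latter not with TMM factors. The tyrosine aminotransferase gene tatn-1 was 5.62-fold higher (4.58 to 6.96), and bcat-1, for branched-chain amino acids, 24.3-fold higher (11.6 to 61.4). Of 18 cytochrome P450 genes 9 were higher and 3 lower (12 and 0 with TMM factors), led by cyp-13A5 with 1 and 162 reads. Of 21 glutathione S-transferase genes 4 were higher and 4 lower (9 and 0 with TMM factors). The superoxide dismutase genes sod-3 and sod-4 had 8 and 27 embryo and 141 and 186 L1 reads, 16.3-fold (8.06 to 38.5) and 6.38-fold (4.25 to 9.94) higher, and the cytosolic sod-1 had 315 and 388, 1.14-fold higher (0.980 to 1.33).

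**Figure D3:**
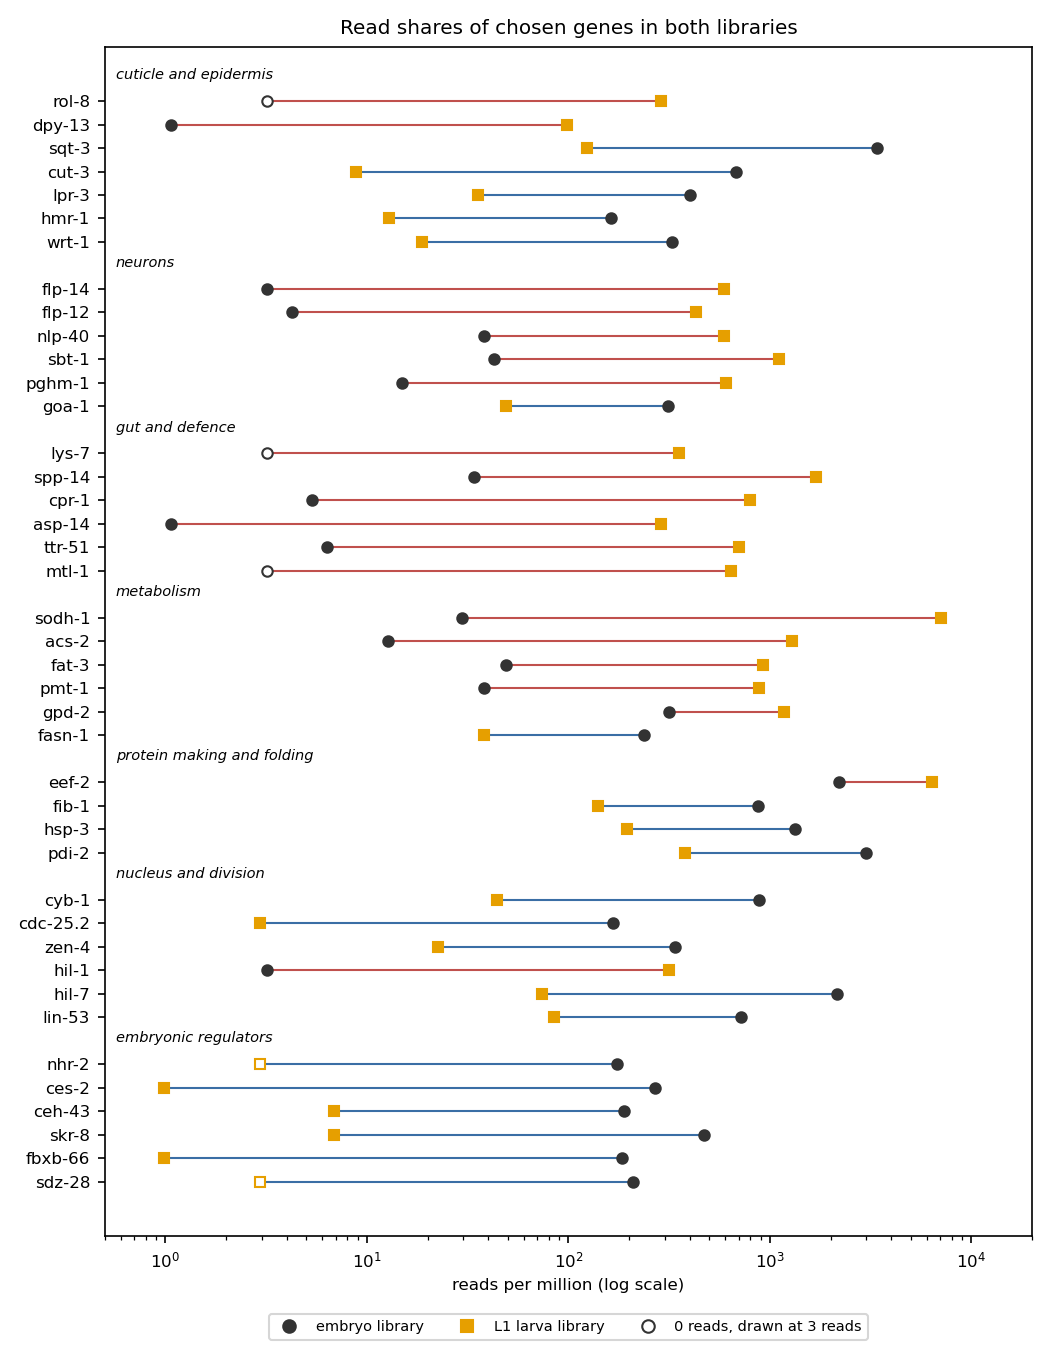
RPM of chosen genes, grouped by role, in the embryo library (circles) and the L1 larva library (squares) on a log axis, with lines red where the L1 share was larger and blue where it was smaller, and open symbols for 0 reads drawn at 3 reads. The largest L1 share shown is that of sodh-1, with 7219 reads. The separation runs mostly to the right for peptide, gut and fat genes and mostly to the left for nuclear and embryonic genes. Exceptions are hil-1, a nuclear gene with a larger L1 share, and goa-1 and fasn-1, with smaller L1 shares.

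Most ribosomal protein genes were higher. Of 77 ribosomal protein genes 66 were higher and 1 lower (76 and 1 with TMM factors). These genes have short transcripts, and relative to genes of like transcript length 31 were higher and 1 lower. The lower gene was rpl-41.1, with 495 and 76 reads, 7.03-fold lower (5.52 to 9.08). The elongation factor gene eef-2 had 2081 and 6464 reads, 2.88-fold higher (2.74 to 3.02), while the cap-binding ife-2 and ife-4 had 136 and 132 embryo and 19 and 10 L1 reads. Ribosome biogenesis genes had 15 of 31 lower and 0 higher by totals, and 1 lower and 3 higher with TMM factors. The nucleolar methyltransferase gene fib-1 had 827 and 142 reads, 6.29-fold lower (5.26 to 7.57). Of 59 mitochondrial ribosomal protein genes 54 were not called by totals. Aminoacyl-tRNA synthetase genes had 1 of 29 higher by totals, iars-1, and 0 lower (2 and 0 with TMM factors).

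Folding and quality control genes of the endoplasmic reticulum were lower, and fewer of the cytosolic ones were called. Of 34 endoplasmic reticulum genes 28 were lower and 0 higher (10 and 0 with TMM factors), with a joint share 3.90-fold lower (3.78 to 4.02). The disulfide isomerase gene pdi-2, also a partner of the collagen prolyl hydroxylase, had 2831 and 384 reads, 7.96-fold lower (7.15 to 8.88). The chaperone gene hsp-3 had 1260 and 199 reads, 6.84-fold lower (5.88 to 7.98), and the collagen lysyl hydroxylase gene let-268 had 85 and 5. Proteasome genes had 7 of 32 lower by totals and none called with TMM factors, and chaperonin genes had 3 of 8 lower and none. The cytosolic chaperone genes hsp-1 and hsp-90 had 613 and 2473 embryo and 750 and 3553 L1 reads, 1.13-fold (1.02 to 1.26) and 1.33-fold (1.26 to 1.4) higher. Small heat shock genes went apart. The gene hsp-12.3 had 12 and 555 reads, 42.8-fold higher (24.3 to 83.4), and hsp-12.1 had 229 and 13, 19.0-fold lower (10.9 to 36.3). The stress-inducible hsp-16.2 had 411 and 30 reads, 14.8-fold lower (10.2 to 22.2). By totals 3 small heat shock and HSP70 genes were higher, 2 of them with a larger young adult than L1 share.

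Few mitochondrial genes were called by totals, the nucleotide carrier among them. Of 44 nuclear genes of oxidative phosphorylation 1 was higher and 2 lower (10 and 0 with TMM factors). The higher gene was ant-1.1, the ADP/ATP carrier, with 3446 and 13135 reads, 3.53-fold higher (3.40 to 3.67). The lower genes asb-1 and ucr-2.3, both also high in the young adult library, had 256 and 168 embryo and 81 and 36 L1 reads. Genes encoded in the mitochondrial genome had 0 of 12 higher and 4 lower by totals, and 3 and 1 with TMM factors, and nduo-6 was lower under both, 5.66-fold (4.97 to 6.46).

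Many genes of the dividing nucleus were lower and none was higher, with fewer calls under TMM factors. Of 57 cyclin, replication and DNA synthesis genes 50 were lower and 0 higher (34 and 0 with TMM factors), with a joint share 8.90-fold lower (8.45 to 9.39). The phosphatase gene cdc-25.2, which starts mitosis, had 156 and 3 reads, 56.2-fold lower (18.9 to 275), and the cyclin gene cyb-1 had 833 and 45, lower by 14.8-fold to 27.6-fold (bounds of the interval). Of 56 spindle, centrosome and kinetochore genes 44 were lower and 0 higher (23 and 0 with TMM factors). The kinesin gene zen-4, for cytokinesis, had 318 and 23 reads, 14.9-fold lower (9.78 to 23.9), and the checkpoint gene mdf-2 had 180 and 9, 21.6-fold lower (11.1 to 48.0). Of 60 chromatin regulators 46 were lower and 0 higher (19 and 0 with TMM factors). The gene set-1, a histone methyltransferase, was 11-fold lower (8.11 to 15.2), and lin-53, a histone chaperone of several complexes, 8.48-fold lower (6.76 to 10.7).

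Histone variants included a linker histone that ran against its family. The list of linker and replacement histones had 9 of 11 lower and 1 higher (7 and 1 with TMM factors). The higher gene was hil-1 (chromosome V, 14949777 to 14952799, plus strand), with 3 embryo, 319 L1 and 8 young adult reads, 98.5-fold higher (33.4 to 480). The linker histone genes hil-2 and hil-7 had 1633 and 2032 embryo and 88 and 75 L1 reads, the latter 29.3-fold lower (23.2 to 37.4). Among the H3 variants, his-72 had 1992 and 308 reads, 6.99-fold lower (6.19 to 7.90), and his-71 had 229 and 274, 1.11-fold higher (0.926 to 1.33) and not called.

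RNA processing and transcription machinery was lower by totals, with fewer calls under TMM factors. Splicing genes had 48 of 57 lower and 0 higher (15 and 0 with TMM factors). The ribonucleoprotein gene hrp-1 had 792 and 102 reads, 8.39-fold lower (6.82 to 10.4), and rsp-1, an SR protein gene, 620 and 79. Of 47 mediator and basal transcription genes 33 were lower and 0 higher, but 3 and 0 with TMM factors. The gene of the largest RNA polymerase subunit of mRNA synthesis, ama-1, had 65 and 5 reads, 14-fold lower (5.72 to 44.7). Of 45 nuclear pore and transport genes 25 were lower and 0 higher (7 and 0 with TMM factors), among them baf-1, a chromatin-to-lamina linker, 6.39-fold lower (5.09 to 8.12). The cytoplasmic poly-A binding gene pab-1 had 1809 and 1971 reads, 1.01-fold higher (0.946 to 1.08), and its nuclear counterpart pab-2 had 143 and 17, 9.08-fold lower (5.48 to 16). Of 12 Argonaute genes, which carry small RNAs, 3 were lower and 1 higher (2 and 2 with TMM factors), with nrde-3 13.6-fold lower (7.40 to 28) and ppw-2 8.95-fold higher (2.77 to 45.9). The young adult share of ppw-2 was larger than its L1 share.

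Many regulators that lay out the embryo were lower. Of 25 endoderm, mesoderm and epidermis regulators and their early targets 20 were lower and 0 higher (14 and 0 with TMM factors), and 7 of the 20 had 0 L1 reads and so reached 20 reads through the embryo library alone. The genes pes-10 and tbx-11, a T-box factor, had 67 and 58 embryo reads and 0 L1 reads. Of 26 measured ceh homeobox genes 21 were lower and 0 higher (9 and 0 with TMM factors), with ceh-43 at 178 and 7 reads, 27.5-fold lower (13.1 to 69.3), and ceh-40, a cofactor of Hox proteins, at 80 and 1. Proneural bHLH genes had no L1 reads at all in several cases. The genes ngn-1, cnd-1 and lin-32 had 35, 33 and 30 embryo reads and 0 L1 reads, and hlh-2, their shared partner, had 257 and 25, 11.1-fold lower (7.35 to 17.5). In the same family mxl-3 and mdl-1, which act in metabolism and lifespan, had 56 and 84 embryo and 281 and 278 L1 reads, 4.65-fold (3.48 to 6.31) and 3.06-fold (2.39 to 3.96) higher. The list as a whole had 10 of 20 lower and 3 higher (8 and 4 with TMM factors), and 4 of the 10 had 0 L1 reads and were measured through the embryo library alone.

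Nuclear hormone receptors, a large family of transcription factors in worms, depended on the scaling. Of 77 measured, 3 were higher and 11 lower by totals, and 14 higher and 2 lower with TMM factors, and the median of -0.31 became 0.70. The 2 receptors that were lower under both scalings were nhr-2, an early embryonic factor with 164 and 0 reads, at least 59.0-fold lower, and sex-1, which counts X chromosomes, with 194 and 10, 21-fold lower (11.2 to 44.4). The receptors nhr-101 and nhr-21 were higher, with 8 and 50 embryo and 92 and 258 L1 reads. The metabolic receptor nhr-49 had 229 and 144 reads, 1.72-fold lower (1.39 to 2.13) and not called.

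Some signalling and death genes were lower. Of 40 Wnt, Notch, EGF and TGF-beta pathway genes 18 were lower and 2 higher (11 and 3 with TMM factors). The Wnt ligand gene mom-2 had 144 and 12 reads, 13-fold lower (7.20 to 25.7), and the Notch ligand gene dsl-1 46 and 0. The higher genes were daf-7, the TGF-beta ligand of the dauer decision, with 0 and 27 reads, at least 8.33-fold higher, and sma-4, a SMAD gene, with 8 and 40, 4.63-fold higher. Of 27 cell death and engulfment genes 12 were lower and 1 higher by totals, and 4 lower and 3 higher with TMM factors. The genes ces-1 and ces-2, which decide the death of certain neurons, had 26 and 252 embryo reads and 0 and 1 L1 reads, and cps-6, a mitochondrial nuclease, had 27 and 241, 8.26-fold higher (5.54 to 12.8). Regulators of insulin signalling, dauer and larval arrest had 5 of 20 lower and 0 higher (2 and 0 with TMM factors). The lower share was below the 33.0% of all measured genes by totals and close to the 11.6% with TMM factors. Both that were lower under TMM factors, cki-1, a cell cycle inhibitor, and hbl-1, a timing factor, had 267 and 197 embryo and 41 and 15 L1 reads, 7.03-fold and 14.2-fold (8.39 to 25.8) lower. The kinase gene akt-1 had 160 and 154 reads and was not called.

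Adaptors of ubiquitin ligases were mostly lower. F-box proteins bind a substrate and Skp1-related proteins tie them to the ligase, and both families are large in worms. Of 331 F-box genes of the fbxa, fbxb and fbxc groups in the table, 245 had reads and 68 were measured, of which 51 were lower and 4 higher (49 and 5 with TMM factors). Of the lower genes 31 had 0 L1 reads and so passed the read minimum through the embryo library alone. By group, the 38 measured fbxb genes had 1660 embryo, 17 L1 and 7 young adult reads in all, no more than 2 L1 reads each, and 23 of them lay on chromosome II. The fbxc genes had 11 of 13 lower and 0 higher, led by fbxc-51 with 307 and 7 reads, 47.4-fold lower (22.7 to 119). The fbxa genes had 2 of 17 lower and 4 higher, (5 higher with TMM factors), such as fbxa-24 with 1 and 54 reads.

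Of 18 measured Skp1-related genes, 12 were lower and 2 higher (10 and 2 with TMM factors). The genes skr-8, skr-9, skr-10, skr-12, skr-13 and skr-14 had 443, 359, 254, 141, 192 and 227 embryo reads and 7, 2, 4, 0, 1 and 1 L1 reads. The core subunit gene skr-1 had 837 and 528 reads, 1.71-fold lower (1.53 to 1.91) and not called. The genes skr-3 and skr-4 were higher, with 59 and 1 embryo and 183 and 44 L1 reads. Of 11 measured sdz genes, a set named for zygotic transcription, 8 were lower and 1 higher (8 and 2 with TMM factors), and 6 of the 8 had 0 L1 reads. The genes sdz-28 and sdz-30 had 198 and 86 embryo and 0 L1 reads, and sdz-24 had 1 and 113, 105-fold higher (18.4 to 4169). Of 23 BTB and MATH domain genes, adaptors of another ligase, 12 were lower and 3 higher (6 and 3 with TMM factors), with btb-6 at 233 and 1 reads and btb-11 at 106 and 0.

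Noncoding RNAs with poly-A tails were few but some were abundant. Of 9 measured intergenic noncoding genes 3 were higher and 1 lower (4 and 1 with TMM factors). The joint share of the list was 8.79-fold higher (8.33 to 9.28), with 1471 embryo, 13966 L1 and 896 young adult reads. Most of these L1 reads were not those of the genes named below. The median log2 ratio of the 9 measured genes was -0.11, so the joint share does not describe the list gene by gene. The gene lep-5, a timing RNA of the male tail, had 1 embryo, 275 L1 and 406 young adult reads. The gene rncs-1, an RNA of starved worms that binds Dicer, had 47, 700 and 191 reads, 13.8-fold higher (10.3 to 18.9). In contrast tts-2 (chromosome II, 10201125 to 10202230, minus strand) had 1112, 75 and 7 reads, 16-fold lower (12.7 to 20.5).

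Genes with a sequence name in place of a gene name were 496 of the higher, 44.3%, and 1056 of the lower, 38.1%, against 40.7% of all measured genes. Among the 20 genes per direction with the bound farthest from 1, F46C5.1 had 0 embryo, 507 L1 and 1 young adult reads, at least 156-fold higher. C23G10.11 had 0, 498 and 1 reads, at least 154-fold higher, and Y43C5A.3 had 0, 369 and 44, at least 114-fold higher. The secreted peptide gene fipr-1 had 0, 459 and 196 reads, at least 142-fold higher. In the other direction C35E7.5 had 580 embryo, 4 L1 and 2 young adult reads, 157-fold lower (60.8 to 577). C08F1.10 had 257, 1 and 0 reads, 278-fold lower (49.4 to 11005), B0281.5 had 329, 2 and 9, and Y71A12B.11 had 157, 0 and 0.

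Transcript length and chromosome moved with the calls. The read-weighted mean of the longest annotated transcript was 1433 bases in the embryo and 1076 in the L1 library, and 1536 and 1304 without ribosomal protein genes. Of genes with transcripts up to 500 bases 38.4% were higher and 19.6% lower, and of genes over 3000 bases 2.61% were higher and 38.1% lower. The median length was 869 bases for higher, 1459 for lower and 1452 for uncalled genes. Calls relative to genes of like length changed the ribosomal count above, and the nlp count became 33 higher and 3 lower. The part of length in the calls was not tested. By chromosome, the share of genes called higher was 21.3% on V, 17.6% on X and 15% on IV, against 7.78% on I, 11.1% on II and 8.68% on III. The share called lower was 25.5% on V, the lowest of the 6 nuclear chromosomes, and 37.3% on I, the highest.

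**Figure D4:**
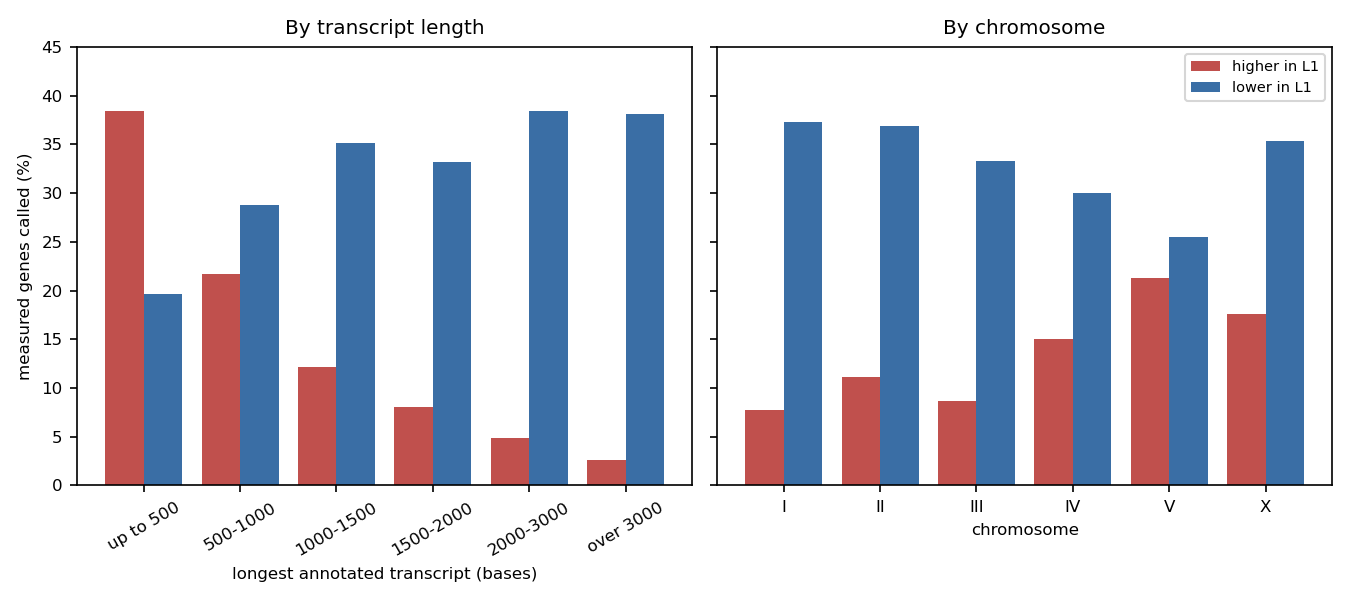
Percent of measured genes called higher (red) or lower (blue) in the L1 larva library, by library totals, in bands of the longest annotated transcript (left) and by nuclear chromosome (right). The share called higher falls from 38.4% in the shortest band to 2.61% in the longest, and is largest on chromosome V at 21.3%.

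Isoforms within genes were compared on rows of the deposited table, of which most carry the identifier of a read in place of a transcript name. Such rows held 83.0% of embryo and 84.6% of L1 reads, so their exon structure could not be described. Of 3806 genes with 20 or more reads in each library and at least 2 rows with reads, 34 (0.893%) had a row whose share of the gene's reads differed by 20 percentage points or more with intervals apart. The row that led in the embryo library also led in the L1 library in 3429 genes (90.1%), and the median difference of its share was 3.27 points. In 20 genes (0.525%) the leading row was exchanged with intervals apart, and in none of these were both rows transcript names. The gene totals, of which 13.4% were higher and 33.0% lower, were called with another threshold, so these percentages are not on 1 scale.

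Where isoforms differed, depth allowed the firmest values in a few genes with 100 or more reads in each library, of which 6 of 706 were called. In pas-2, a proteasome subunit gene, the leading row held 19.9% of the gene's reads in the embryo library, 52 of 261, and 65 of 114 reads in the L1 library (Wilson 95% interval 47.8 to 65.7%). In snr-2, a core splicing protein gene, a row held 21.6% (18.7 to 24.9) of 661 embryo reads and 56.1% (47.5 to 64.2) of 132 L1 reads, in place of another row that led in the embryo. In rpl-7 the leading row of the embryo held 57.4% (55 to 59.9) of 1555 reads and 34.0% (32.9 to 35.2) of 6279 L1 reads. The remaining genes were R07E5.19, T03F1.11 and xbx-6, whose rows moved from 44.7% to 78.2%, from 67.5% to 47.0% and from 9.62% to 36 of 120 reads.

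Genes with fewer reads showed larger but less certain differences. In the collagen gene col-76, a row held 24% of 221 embryo reads and 74.2% (62.1 to 83.4) of 62 L1 reads. In grl-16, a hedgehog-related gene, the row of an annotated transcript held 0.535% (0.0945 to 2.97) of 187 embryo reads and 44.4% (27.6 to 62.7) of 27 L1 reads. The genes let-2, unc-60, lev-11, cle-1 and unc-52 are known for alternative transcripts, and none was called. In lev-11 the leading row held 31.6% (28.4 to 35.1) of embryo and 35.7% (32.5 to 39.1) of L1 reads. In unc-60 no single row led, as rows with equal reads were tied in both libraries. Each of these held 32.3% (28.4 to 36.6) of embryo and 34.1% (27.5 to 41.3) of L1 reads.

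**Figure D5:**
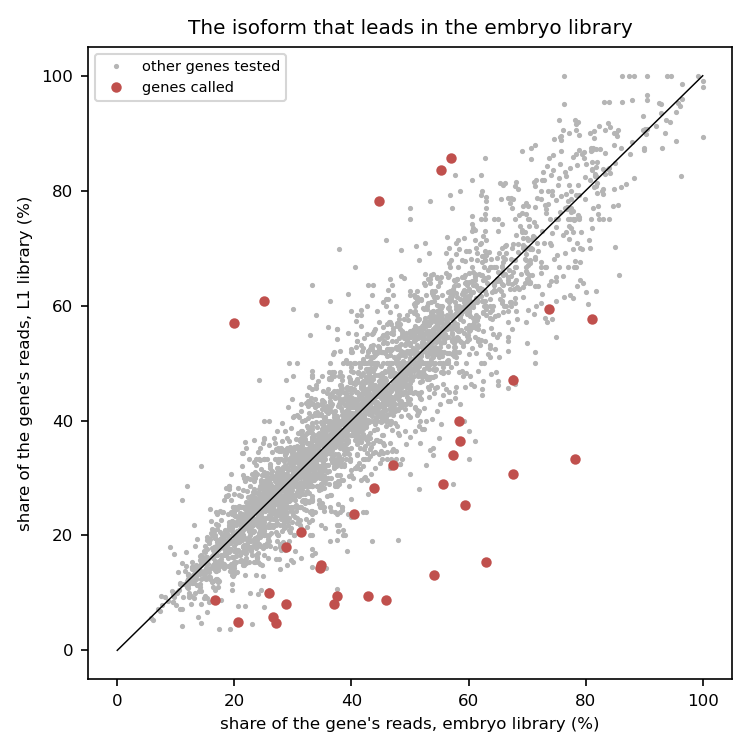
Share of a gene's reads on the row that leads in the embryo library, in percent, in the embryo library (horizontal) and the L1 larva library (vertical), for 3806 genes with 20 or more reads in each. Points lie along the line of equal share, and the 34 genes called for any row are red.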

How the data were processed

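The authors deposited estimated counts per isoform row for each library, not scaled for depth, and coverage signal per gene, which equals the estimated counts times 1.3267 in each library and was used only for this check. A placeholder of 1e-08 was read as 0. Per the labels' protocols, RNA was sequenced with a direct RNA kit on a MinION; minimap2 2.14 is named in the submitters' processing notes; which build, annotation and isoform tool served is not given in the sources used here, and how reads were divided between isoforms could alter isoform shares. Here expected counts were summed per gene and rounded, and read shares compared by exact conditional binomial (Clopper-Pearson) 95% intervals, which cover counting error only. Log2 ratios have 0.5 read added. The comparison was tested on simulated reads with counting error only, the error that the intervals assume. That check could not address variation between samples or reads divided among near copies. Scaling factors came from edgeR 4.0.16 and DESeq2 1.42.0, as 2 alternatives, with Python 3.11.15, pandas 2.3.3, scipy 1.17.1 and R 4.3.3. Symbols are the deposited ones for 15323 genes and RefSeq's for 3754. Positions, biotypes and lengths are from Ensembl release 115 (WBcel235). Genes were named by rule: the 20 per direction with the bound farthest from 1 among those with 100 or more reads in the higher library, and per list the 4 with most reads and the 2 per direction with the bound farthest from 1; other genes were chosen after their values were seen. Members and lists were chosen with earlier results of these data known.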

Additional observations from a re-analysis of the deposited data

How the results depend on the processing

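The counts by library totals, 1120 genes higher in L1 larva and 2769 genes lower in L1 larva, depended on scaling and thresholds. None of the named genes reversed its direction of call with TMM factors or DESeq2 size factors, but no reversal was possible. Each scaling shifted all ratios alike, by too little to turn a call into its opposite, so the direction of call was not tested by them. The lower count became 976 with TMM factors and 964 with DESeq2 size factors. With 100 or more reads over both libraries 515 genes were higher and 1391 lower, with the bound 4-fold from 1 the counts were 739 and 981, and over rows with a transcript name alone they were 333 and 532. For isoforms, 34 genes became 6 with 100 or more reads in each library, 66 at 10 points, 6 at 40 points and 6 over transcript names alone, and the 20 exchanges became 13 and 2 at 100 reads and over names alone. The cause was not tested beyond the fewer genes or looser bounds that these settings impose. No paired analysis was possible because each stage had 1 library. Genes with few reads had intervals too wide for a call.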
